A study of Mus musculus with 8 samples.

Results

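The nuclear-encoded subunits of the mitochondrial respiratory chain and ATP synthase were followed in hearts of mouse embryos homozygous for the M195I change in CHD4 and in wild-type (WT) hearts. Members were the protein-coding genes whose symbols name a subunit of complex I (Nduf), II (Sdh), III (Uqcr), IV (Cox4 to Cox8) or V (Atp5) and that had at least 10 counts in at least 4 libraries. Of 84 genes with such a symbol, 82 were members, out of 49315 genes counted. Of the genes just outside the count limit, Cox7b2 had at most 4 counts in a library and Cox8c had 0 in all of them, whereas the members with the fewest counts, Cox4i2 and Cox6b2, had between 104 and 163 counts in every library. By complex, 35 members belonged to I, 4 to II, 8 to III, 18 to IV and 17 to V, with Ndufa4 and its paralogue Ndufa4l2 placed in complex IV.

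The libraries were RNA sequencing of whole hearts dissected late in gestation (E18.5), made with a TruSeq RNA kit. There were 4 CHD4 M195I/M195I hearts and 4 WT hearts, each numbered 1 to 4, and the labels name no strain, litter or batch. CHD4 is an ATPase that moves nucleosomes within the NuRD complex, and the comparison asked which transcripts differed between the genotypes. The labels give the genotype of the embryo and the whole organ as the tissue, so cardiomyocytes and other heart cells were measured together.

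Complexes I to IV pass electrons from NADH and succinate to oxygen and, apart from complex II, pump protons across the inner mitochondrial membrane, and complex V uses the returning protons to make ATP. Complex II is encoded wholly in the nucleus, and the others also hold subunits encoded in mitochondrial DNA. Around birth the mammalian heart shifts from glycolysis towards fatty acid oxidation, and several small subunits of cytochrome c oxidase (complex IV) have a heart and skeletal muscle isoform (Cox6a2, Cox7a1, Cox8b) beside one made in most tissues (Cox6a1, Cox7a2, Cox8a).

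The promoters of the Cox8 and Cox7a isoform pairs are shown because the muscle share of the Cox8 pair was lower in every mutant heart than in any WT heart, whereas for the Cox7a pair the genotypes overlapped. Each window runs 5′ to 3′ on the strand of the gene from 250 bases before to 50 bases after the RefSeq start (GRCm38.p6). Cox8b lies at chr7:140900397-140900696 (minus strand), Cox8a at chr19:7217567-7217866 (minus strand), Cox7a1 at chr7:30183921-30184220 (plus strand) and Cox7a2 at chr9:79759804-79760103 (minus strand). Capitals mark exact matches, on either strand, to 9 motifs: GABPA (CCGGAAGT), YY1 (AAGATGGC), the oestrogen-related receptors (TCAAGGTCA), HIF (ACGTG), SP1 (GGGCGG), the muscle E-box (CAGCTG), the TATA box (TATAAA), and NRF1 and MEF2, which are given by name only.
Cox8b: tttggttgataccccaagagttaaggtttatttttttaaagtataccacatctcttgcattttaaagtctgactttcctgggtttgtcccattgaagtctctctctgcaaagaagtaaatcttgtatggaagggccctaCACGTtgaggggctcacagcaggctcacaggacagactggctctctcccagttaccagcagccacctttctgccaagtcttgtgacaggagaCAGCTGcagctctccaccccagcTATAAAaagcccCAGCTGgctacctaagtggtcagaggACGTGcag
Cox8a: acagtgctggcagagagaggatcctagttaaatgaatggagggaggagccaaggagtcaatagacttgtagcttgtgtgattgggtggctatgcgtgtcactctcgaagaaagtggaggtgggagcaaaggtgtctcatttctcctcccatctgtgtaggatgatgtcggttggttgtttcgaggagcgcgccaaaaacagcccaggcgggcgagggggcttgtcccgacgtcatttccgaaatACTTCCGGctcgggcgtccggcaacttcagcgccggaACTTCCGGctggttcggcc
Cox7a1: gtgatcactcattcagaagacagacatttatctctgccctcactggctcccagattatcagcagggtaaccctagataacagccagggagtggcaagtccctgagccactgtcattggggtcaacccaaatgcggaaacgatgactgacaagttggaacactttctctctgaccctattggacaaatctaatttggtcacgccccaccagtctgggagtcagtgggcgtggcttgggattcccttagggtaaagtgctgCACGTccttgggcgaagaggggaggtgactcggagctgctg
Cox7a2: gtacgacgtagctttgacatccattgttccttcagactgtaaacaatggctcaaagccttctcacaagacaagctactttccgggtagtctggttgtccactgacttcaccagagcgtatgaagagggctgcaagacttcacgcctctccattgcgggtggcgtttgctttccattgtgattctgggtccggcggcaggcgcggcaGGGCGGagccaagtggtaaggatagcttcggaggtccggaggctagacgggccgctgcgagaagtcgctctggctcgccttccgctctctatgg

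Matches differed within both pairs. Cox8b held 2 matches to HIF, 2 to the E-box and 1 to the TATA letters, whereas Cox8a held 2 to GABPA. In Cox8b the TATA letters began 4 bases after the RefSeq start, not before it. Of its other matches, 1 E-box began 16 bases and 1 HIF match 42 bases after the start. Cox7a1 held 1 HIF match and Cox7a2 held 1 SP1 match, and no matches overlapped in these 4 windows. RefSeq gave a window for 65 of the 82 members. Of those 65, 7.7% held the NRF1 motif, against 1.0% of 27025 promoters of the same length. The YY1 letters were in 12.3% of the members' windows, against 2.9% of all. Shares were 7.7% against 4.0% for GABPA, 3.1% against 0.4% for the oestrogen-related receptors and 24.6% against 19.7% for HIF. For SP1 they were 38.5% against 35.9%, for the E-box 9.2% against 16.1%, for the TATA box 9.2% against 14.2% and for MEF2 0.0% against 3.3%. The letters of the oestrogen-related receptors were in only 2 members. Of the 14 called members with a window, 0 held these letters, 0 the NRF1 motif and 0 the MEF2 motif. HIF letters were in 6 of the 14, SP1 in 6, the E-box in 3, the TATA box in 3, YY1 in 2 and GABPA in 1. With only 14 windows these counts, the zeros included, are too few to compare with the shares above. A match is a description of letters in the window. Members without a window included Ndufs1, Ndufa2, Ndufb9, Sdhc, Uqcrb, Uqcrc2, Uqcrq, Cox4i1, Cox4i2, Cox6a2, Cox6c, Ndufa4l2, Atp5a1, Atp5f1, Atp5mpl and Atp5s.

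Total counts ranged from 18673488 to 21341235 in mutant libraries and from 18375951 to 20815388 in WT libraries. Levels are in CPM (the count of a gene relative to all counts of its library) scaled by TMM, which corrects library size for composition. Log2 fold changes (mutant minus WT, ± standard error) came from edgeR's quasi-likelihood test with Benjamini-Hochberg adjustment over the 16372 genes tested, and a gene was called at an adjusted p under 0.05. The p-values measure the spread between these libraries, since the labels do not say that the hearts came from separate litters. Cardiomyocyte markers were abundant in every library (summed level of 8 genes 36554 to 41234 CPM in mutants and 42109 to 47512 CPM in WT, without overlap). The counts do not show the mutated base. Transcripts of airway epithelium (Scgb3a2, at 176 CPM of library totals or more) were present in mutant replicates 3 and 4 and WT replicates 1, 3 and 4, and at most 6.48 CPM was found in mutant replicates 1 and 2 and WT replicate 2. WT replicate 4 had a lower level of Y-linked transcripts (Ddx3y at 35.5 CPM of library totals) than the other 7 libraries (70.3 to 80.4 CPM), although every file header calls its library male.

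The summed transcripts of each of the 5 complexes were slightly lower in the mutant hearts, and the members that differed most were muscle or hypoxia-linked forms of complex IV subunits. All 82 members passed the filter on low counts. Of these, 20 (24.4%) were called lower and 0 were called higher, against 7.49% lower and 5.75% higher among all genes tested, and 62 were not called. In the same test 53 members had an unadjusted p under 0.05, but the share of all genes under this cut was not counted. The log2 fold change was negative for 80 of 82 members, against 50% of all genes, and positive for Cox8a and Cox6b2. The median over the members was -0.12, beside -0.00 over all genes. Levels did not overlap between the genotypes for 31 members, all lower in the mutants, against 9.77% of all genes lower without overlap and 8.8% higher.

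**Figure D1:**
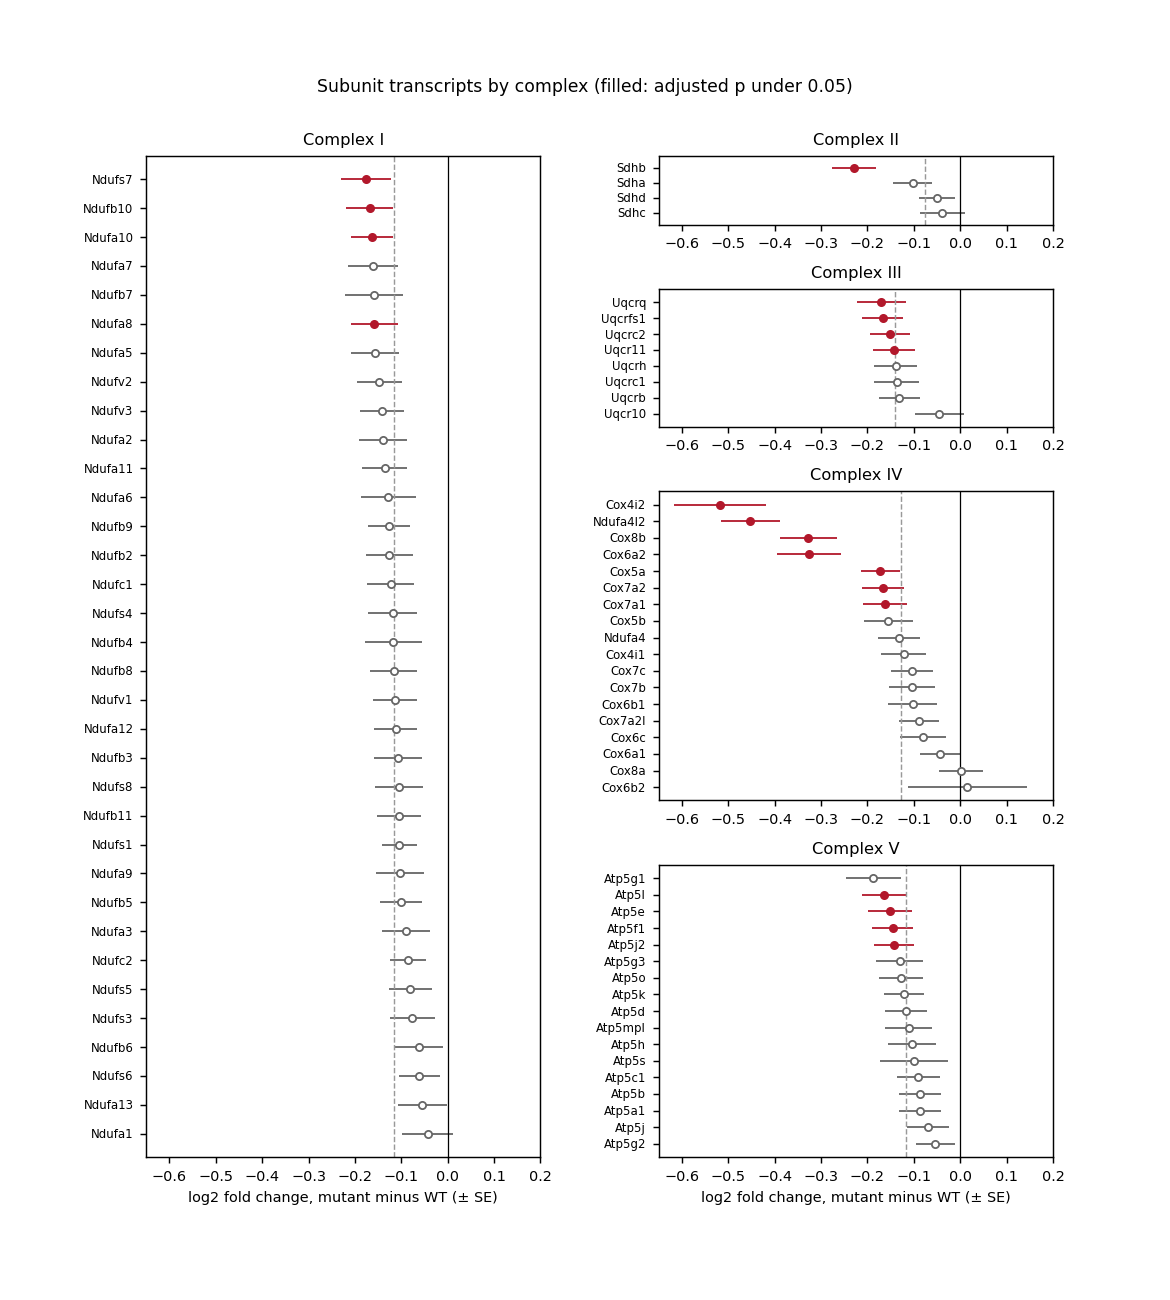
Log2 fold change, mutant minus WT, of 81 of the 82 members (points, with standard errors as bars), by complex. Filled points are the 20 members with an adjusted p under 0.05, the solid line is 0 and the dashed line is the median of the complex; all members drawn for complexes I, II, III and V lie left of 0.

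The size of this count depended on single libraries and on the scaling. The count of members called lower was 6 without mutant replicate 1, 14 without mutant replicate 2, 8 without mutant replicate 3 and 6 without mutant replicate 4. It was 15, 9, 17 and 11 without WT replicates 1, 2, 3 and 4. Among all genes the shares called lower in these fits lay between 5.44% and 6.86%. Without mutant replicate 1, where 7.32% of members and 6.86% of all genes were called lower, the members' share was near the background. When libraries were scaled by their totals, 6 members (7.32%) were called lower, against 5.24% of all genes. The median was then -0.07 over the members and 0.05 over all genes, and 75 members were negative. Cox4i2, Ndufa4l2, Cox8b, Cox6a2, Sdhb and Cox5a remained called without any 1 library and with library totals. In the 5 libraries with airway transcripts 5 members (6.1%) were called lower, against 6.33% of all genes. In the other 3 libraries, of which WT replicate 2 is the only WT library, 54 (65.9%) were called lower, against 4.84% of all genes. That WT library stood apart for many members, as given below.

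**Figure D2:**
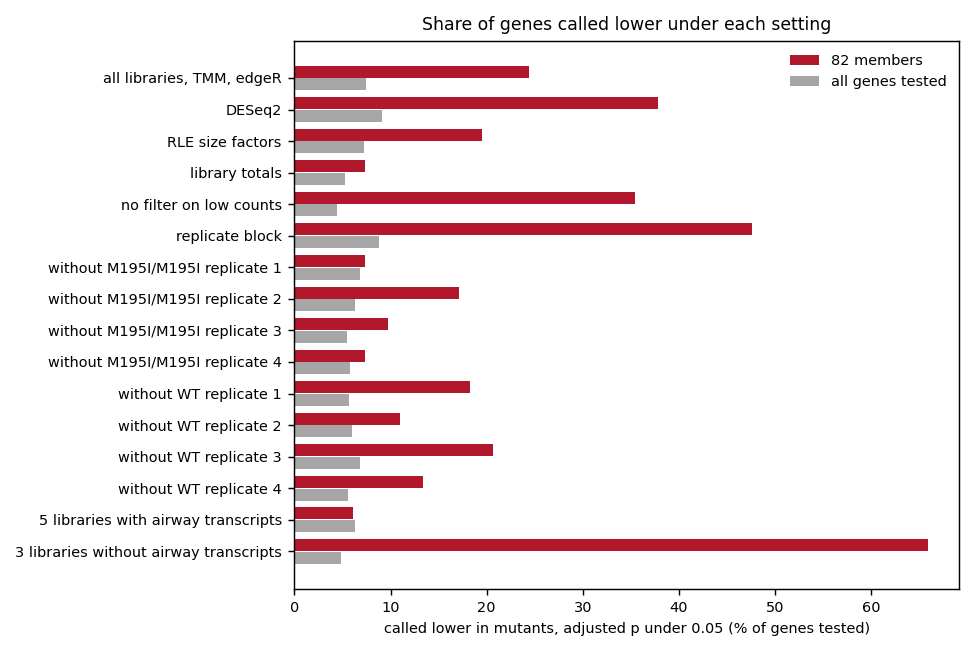
Share of the 82 members (red) and of all genes tested (grey) called lower in the mutants at an adjusted p under 0.05, in percent of genes tested, for each way of scaling, testing or leaving out libraries. The members' share ran from 6.1% in the 5 libraries with airway transcripts to 65.9% in the 3 without, and was 24.4% with all libraries.

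The summed level of the 82 members was 27574, 29388, 29354 and 27802 CPM in the mutant hearts, against 29887, 33528, 29922 and 30243 CPM in WT hearts. The groups did not overlap, but mutant replicates 2 and 3 lay close to the lowest WT library, and WT replicate 2 lay far above the other WT libraries. The means were 28530 ± 976 CPM in mutants and 30895 ± 1762 CPM in WT (SD, n = 4 each), which is 7.66% lower in mutants. As a share of all counted reads, without TMM, the members made up 2.80, 2.96, 2.98 and 2.87% in mutants and 2.96, 3.22, 2.97 and 2.96% in WT, and the groups overlapped. In whole hearts, fewer cardiomyocytes and less RNA per cardiomyocyte cannot be told apart. The summed cardiomyocyte markers were also lower in every mutant library than in any WT library, and their highest value, 47512 CPM, was in WT replicate 2. Most of that gap came from the myosin heavy chains Myh6 (10268 CPM in mutants and 13294 CPM in WT on average) and Myh7 (15331 and 17091 CPM), neither of which was called. Of the 8 markers, only Actn2 was called lower, and the genotypes overlapped for the other 7. Tnnt2 had a log2 fold change of -0.04 ± 0.05 and Nkx2-5 one of 0.08 ± 0.05. Erythroid markers, mostly haemoglobin transcripts, summed to 1241 to 1959 CPM in mutants and 2026 to 3879 CPM in WT, without overlap. All 6 were below 0, with a median of -0.86, and none was called. Of 4 endothelial markers 1 was called lower and 1 higher, and of 4 fibroblast markers none was called. The part of these markers in the members' difference was not tested.

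**Figure D3:**
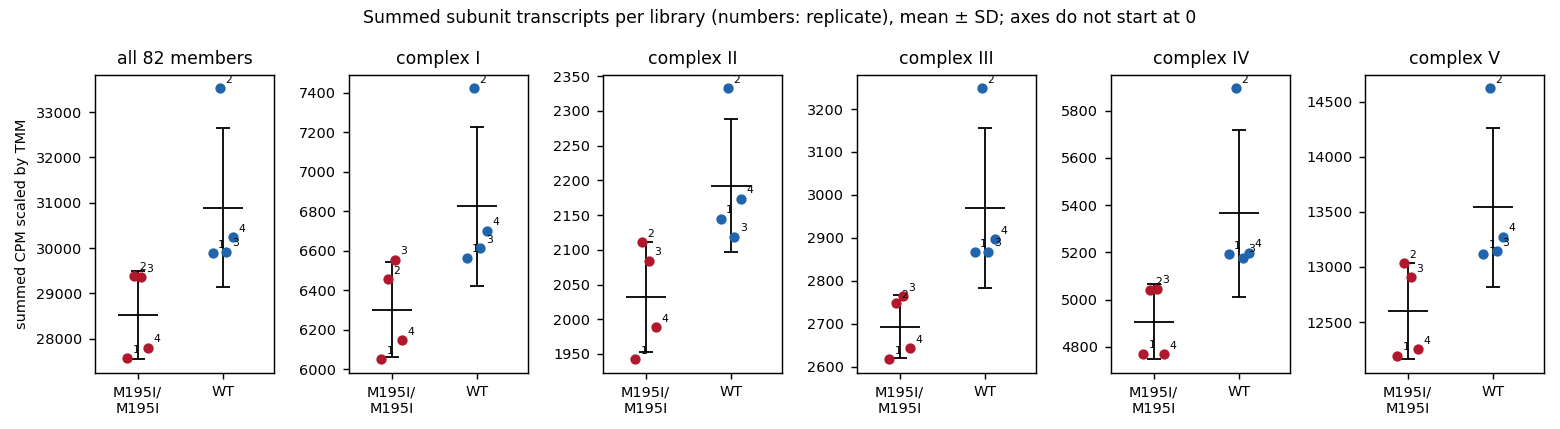
Summed level of the members per library in CPM scaled by TMM, for all 82 and for each complex (points, numbered by replicate), with mean ± SD of 4 libraries per genotype. WT replicate 2 is the highest library in every panel, and the vertical axes do not start at 0.

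Complex I, which takes electrons from NADH, had 35 members, of which 4 were called lower (11.4%, against 7.49% of all genes). The log2 fold changes, all below 0, ran from -0.18 to -0.04 around a median of -0.12. Its summed level averaged 6302 ± 241 CPM in mutants and 6826 ± 403 CPM in WT. Among the 7 core subunits, which carry the flavin, the iron-sulphur clusters and the quinone site, Ndufs7 was called lower (-0.18 ± 0.05, adjusted p = 0.042). Ndufs7 had 153.2, 166.5, 169.3 and 158.9 CPM in mutants and 166.6, 202.0, 180.8 and 182.9 CPM in WT. It was the only called member whose groups overlapped, since mutant replicate 3 lay above WT replicate 1.

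The other 28 members of complex I are supernumerary subunits, which surround the core and are needed for its assembly or stability, and 3 of them were called lower. Ndufb10 was at 210.1 ± 8.76 CPM in mutants and 236.1 ± 17.9 CPM in WT (-0.17 ± 0.05, adjusted p = 0.040). Ndufa10 was at 281.1 ± 7.80 CPM in mutants and 314.8 ± 20.8 CPM in WT (-0.16 ± 0.05, adjusted p = 0.028). Ndufa8 was at 212.1 ± 10.7 CPM in mutants and 236.7 ± 15.7 CPM in WT (-0.16 ± 0.05, adjusted p = 0.049). The 4 calls in complex I were each lost without any 1 of 5 to 7 libraries, with adjusted p of at most 0.127 in those fits. The smallest difference was that of Ndufa1 (83.67 ± 5.56 CPM in mutants and 86.17 ± 5.95 CPM in WT, -0.04 ± 0.06, adjusted p = 0.70), an X-linked membrane subunit, which was 0.01 without WT replicate 2. Per kilobase of exon, Ndufb9 had the highest level of the complex, 375.3 CPM per kb in mutants and 409.8 CPM per kb in WT, and Ndufb2 the lowest, 15.2 and 16.6 CPM per kb, where long annotated variants lower the value.

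Complex II, succinate dehydrogenase, which belongs to both the respiratory chain and the tricarboxylic acid cycle, held the only call outside complex IV that remained without any 1 library. Sdhb, the iron-sulphur subunit, had 371.4, 416.9, 412.4 and 395.0 CPM in mutants and 446.5, 505.6, 454.3 and 463.6 CPM in WT. Every mutant library lay below every WT library (-0.23 ± 0.05, adjusted p = 0.0053), and the adjusted p lay between 0.0056 and 0.017 with any 1 library left out. Its catalytic partner Sdha, which binds the flavin, averaged 977.8 ± 41.1 CPM in mutants and 1050 ± 36.9 CPM in WT (-0.10 ± 0.04, adjusted p = 0.13). The groups of Sdha did not overlap either. The membrane anchors differed less and overlapped: Sdhc had a log2 fold change of -0.04 ± 0.05 (adjusted p = 0.69) and Sdhd one of -0.05 ± 0.04 (adjusted p = 0.47). Both anchors were above 0 with library totals, at 0.01 and 0.0029.

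In complex III, which passes electrons from ubiquinol to cytochrome c, 4 of 8 members were called lower (50%), and the summed level of 2693 ± 73.4 CPM in mutants was 9.32% lower than the 2970 ± 187 CPM in WT. Uqcrfs1, the Rieske iron-sulphur protein, had 391.3, 420.9, 415.4 and 396.5 CPM in mutants and 441.3, 494.4, 438.6 and 449.6 CPM in WT, without overlap (-0.17 ± 0.04, adjusted p = 0.022). Without mutant replicate 1 or 4 the call did not hold, with adjusted p of at most 0.061. The core protein Uqcrc2 averaged 520.6 ± 13.1 CPM in mutants and 578.3 ± 29.98 CPM in WT (-0.15 ± 0.04, adjusted p = 0.027). Among the 5 small subunits, Uqcrq (-0.17 ± 0.05, adjusted p = 0.047), a small membrane subunit, and Uqcr11 (-0.14 ± 0.05, adjusted p = 0.049) were called. The calls of Uqcrc2, Uqcrq and Uqcr11 were lost without any 1 of 4, 7 and 8 libraries. The genotypes overlapped for Uqcr10 (-0.04 ± 0.05, adjusted p = 0.66), although it had a level per kilobase close to that of Uqcr11, with 330.7 CPM per kb in mutants and 341.1 CPM per kb in WT for Uqcr10 and 312.5 and 344.9 CPM per kb for Uqcr11. Without WT replicate 2, Uqcr10 was at 0.01.

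Complex IV, the oxidase that reduces oxygen to water, held 7 of the 20 calls and the 4 members with the largest changes, Cox4i2, Ndufa4l2, Cox8b and Cox6a2. For 10 of its 18 members (55.6%) the genotypes did not overlap, all lower in mutants, against 9.77% of all genes, and the median was -0.13. The 3 muscle isoforms were all called lower, with a median of -0.33. Of the 5 ubiquitous isoforms, only Cox7a2 was called, and their median was -0.10.

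Cox6a2, the heart and skeletal muscle form of subunit VIa, had 271.9, 282.8, 279.8 and 273.7 CPM in mutants and 320.8, 407.5, 323.8 and 336.9 CPM in WT. The mutant libraries lay close together and below all WT libraries, and WT replicate 2 was the highest (-0.33 ± 0.07, adjusted p = 0.010). Without WT replicate 2 the log2 fold change was -0.24 and the gene remained called. Its ubiquitous partner Cox6a1 had 295.4, 323.9, 325.8 and 305.3 CPM in mutants and 306.5, 339.2, 325.9 and 317.5 CPM in WT, and the groups overlapped (-0.04 ± 0.04, adjusted p = 0.59).

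Cox8b, the muscle form of subunit VIII, had 86.9, 92.8, 94.5 and 85.5 CPM in mutants and 102.2, 126.3, 115.7 and 106.9 CPM in WT, without overlap (-0.33 ± 0.06, adjusted p = 0.0043). Cox8a, its ubiquitous partner, had 304.8, 323.2, 341.4 and 306.1 CPM in mutants and 307.0, 344.1, 310.2 and 313.0 CPM in WT. The genotypes overlapped fully for Cox8a (0.00 ± 0.05, adjusted p = 0.99).

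Cox7a1 and Cox7a2, the muscle and ubiquitous forms of subunit VIIa, were called lower together. Cox7a1 had 97.7, 107.9, 105.1 and 101.0 CPM in mutants and 112.6, 126.0, 110.4 and 111.8 CPM in WT (-0.16 ± 0.05, adjusted p = 0.035). Cox7a2 had 232.1, 234.0, 239.6 and 223.3 CPM in mutants and 254.3, 286.1, 249.0 and 252.9 CPM in WT (-0.17 ± 0.05, adjusted p = 0.026). The genotypes overlapped for neither gene, but without mutant replicate 1 or 4 Cox7a2 was no longer called (adjusted p of at most 0.077), and the call of Cox7a1 was lost without any 1 of 6 libraries (at most 0.095).

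**Figure D4:**
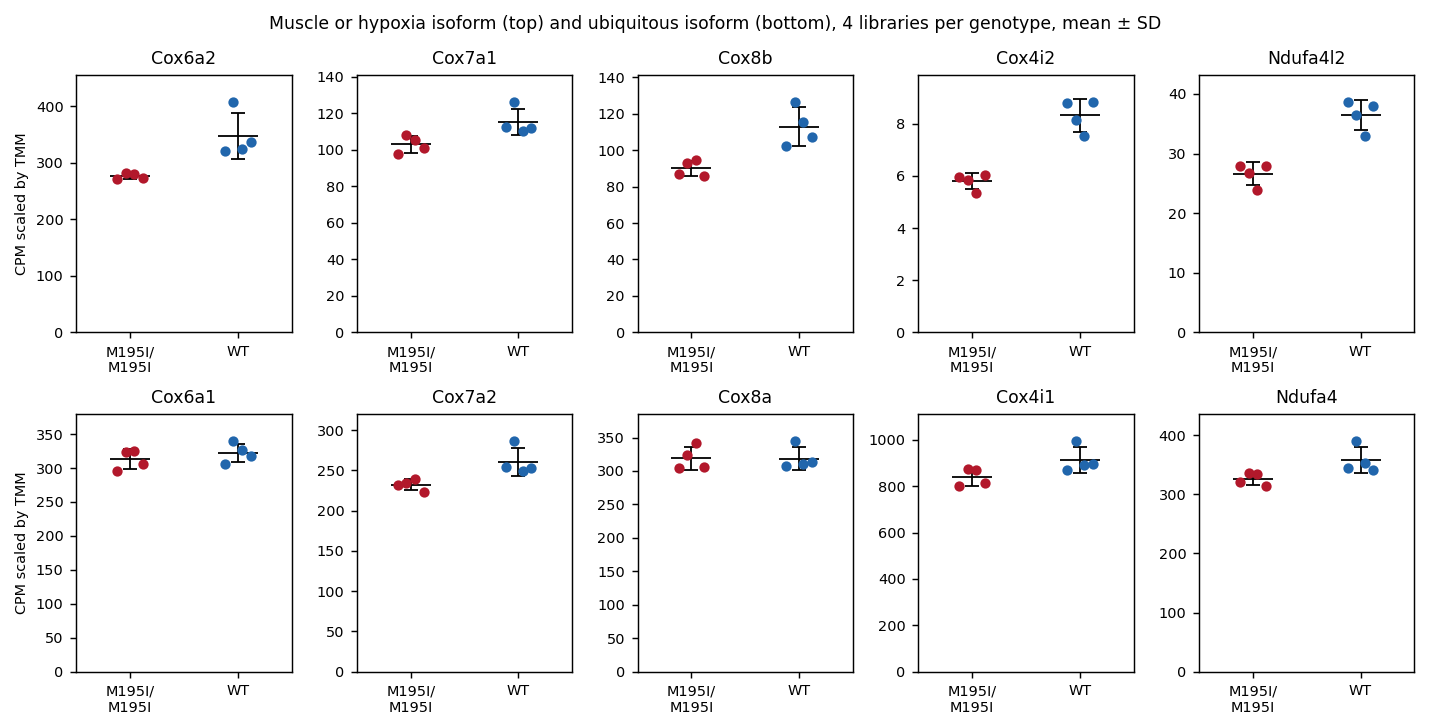
Level per library in CPM scaled by TMM of the muscle or hypoxia-linked isoform (top row) and its ubiquitous partner (bottom row), with mean ± SD of 4 libraries per genotype and axes that start at 0. Each mutant library lies below each WT library in the 5 upper panels; in the lower row the groups overlap for Cox6a1, Cox8a and Cox4i1.

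Cox4i2 and Ndufa4l2 had the largest changes of all 82 members. Cox4i2 is the alternative form of subunit IV, known for its expression in lung and its induction by low oxygen. It had 5.97, 5.86, 5.36 and 6.04 CPM in mutants and 8.81, 8.14, 7.52 and 8.83 CPM in WT, without overlap (-0.52 ± 0.10, adjusted p = 0.0031). In both genotypes the lowest level of Cox4i2 was in replicate 3 and the highest in replicate 4, all of them libraries with airway transcripts. Within the 5 libraries with airway transcripts the difference was -0.56 (adjusted p = 0.017). Within the other 3 it was -0.46 (adjusted p = 0.18).

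Ndufa4l2, a paralogue of Ndufa4 known as a HIF target that lowers oxygen use, had 27.9, 26.8, 23.9 and 27.9 CPM in mutants and 38.6, 36.4, 32.9 and 37.99 CPM in WT (-0.45 ± 0.06, adjusted p = 0.00032). The groups did not overlap, and the adjusted p stayed between 0.00027 and 0.0025 with any 1 library left out. Both genes are known from single-cell studies as transcripts of pericytes. Of 8 pericyte markers, a list added after the values were seen, 2 were called lower, Cspg4 (-0.33 ± 0.04, adjusted p = 0.00013) and Higd1b (-0.51 ± 0.16, adjusted p = 0.045). The genotypes overlapped for Higd1b, and its call was lost without any 1 of 7 libraries (adjusted p of at most 0.14). The other 6 were not called, with Pdgfrb at -0.02, Rgs5 at -0.06, Kcnj8 at 0.23 and Vtn at 0.24. The 8 markers summed to 778 to 822 CPM in mutants and 809 to 949 CPM in WT, which overlapped. Their part in the result was not tested.

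The partners of these forms were not called. Cox4i1, the form of subunit IV in most tissues, averaged 839.2 ± 37.7 CPM in mutants and 913.2 ± 54.3 CPM in WT (-0.12 ± 0.05, adjusted p = 0.11). Ndufa4 averaged 326.4 ± 10.6 CPM in mutants and 357.6 ± 21.9 CPM in WT, without overlap (-0.13 ± 0.05, adjusted p = 0.070). Cox6b1 had a log2 fold change of -0.10 ± 0.05 (adjusted p = 0.23), and Cox6b2, known as the testis form of the same subunit, one of 0.02 ± 0.13 (adjusted p = 0.97) at 6.82 ± 0.78 CPM in mutants and 6.77 ± 1.11 CPM in WT.

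Of the complex IV subunits with a single form, Cox5a, on the matrix side of the enzyme, was called lower. It had 306.0, 315.9, 318.6 and 307.0 CPM in mutants and 349.1, 379.5, 335.8 and 341.6 CPM in WT, without overlap (-0.17 ± 0.04, adjusted p = 0.014). Exons of Cox5a overlap those of Gm26631 by 538 bases, so some of these reads may belong to either gene. Cox7b was not called (-0.10 ± 0.05, adjusted p = 0.20), nor was Cox7a2l, which joins complexes III and IV into supercomplexes (-0.09 ± 0.04, adjusted p = 0.20).

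The balance between isoforms was measured within each library, where scaling cancels. Counts were divided by exon length, and the difference between genotypes in the mean log2 ratio was tested with a two-sided exact permutation test over the 8 libraries, adjusted over 4 pairs. The smallest p that 4 against 4 libraries can give is 0.0286, or 0.038 after adjustment for the 3 pairs that reached it.

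The muscle form made up 48.7, 47.4, 47.0 and 48.1% of Cox6a transcripts in mutant hearts and 51.9, 55.4, 50.6 and 52.3% in WT hearts. Every mutant library lay below every WT library (difference in log2 ratio -0.27, exact permutation p = 0.0286, adjusted p = 0.038). Where these shares lie against 50% depends on the division by exon length (680 bases for Cox6a2 and 702 for Cox6a1). In counts before it, WT replicate 3 had 6546 for Cox6a2 and 6590 for Cox6a1. Cox8b made up 30.2, 30.3, 29.5 and 29.7% of the Cox8 pair in mutants and 33.5, 35.7, 36.1 and 34.1% in WT (-0.32, exact permutation p = 0.0286, adjusted p = 0.038). The spread within the mutants was under 1 percentage point, and the groups did not overlap.

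Cox7a1 made up 42.6, 44.9, 43.6 and 44.4% of the Cox7a pair in mutants and 43.9, 43.7, 43.9 and 43.8% in WT, and the groups overlapped (difference in log2 ratio 0.00, exact permutation p = 1). With any 1 library left out the difference for this pair lay between -0.016 and 0.028. Cox4i2 was a minor form, at 1.45, 1.31, 1.20 and 1.45% of the subunit IV pair in mutants and 1.96, 1.59, 1.64 and 1.90% in WT, without overlap (-0.39, exact permutation p = 0.0286, adjusted p = 0.038). Without mutant replicate 3 the adjusted p of Cox6a, Cox8 and Cox4i was 0.076, at differences of -0.26, -0.32 and -0.34. No test compared the pairs with each other.

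**Figure D5:**
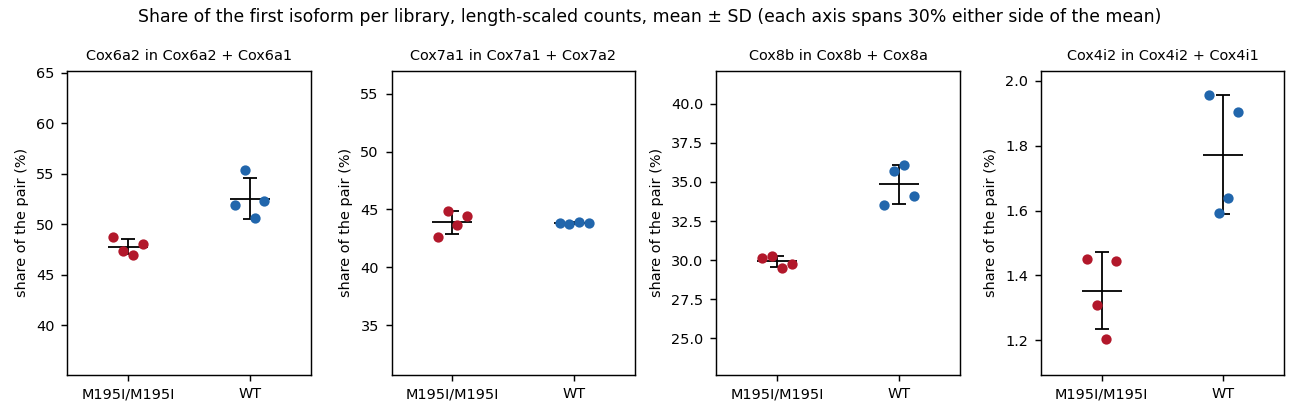
Share of the muscle form, or for subunit IV of Cox4i2, in the length-scaled counts of its pair, in percent per library, with mean ± SD of 4 libraries per genotype; each vertical axis spans 30% either side of the pair's mean. Mutant libraries lie below WT libraries for Cox6a2, Cox8b and Cox4i2, while Cox7a1 averages 43.9% in mutants and 43.8% in WT.

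Cox8b and Cox7a1 are also expressed in brown fat, and Cox6a2 in skeletal muscle. Of the brown fat markers, Ucp1, the uncoupling protein that defines the tissue, had at most 1 count in a library and Elovl3 at most 2. Of the 6 brown fat markers tested, 3 were called lower, the members Cox8b and Cox7a1 and the fatty acid carrier Fabp4. The 6 summed to 486 to 511 CPM in mutants and 568 to 636 CPM in WT. Most of this sum was the 2 members and Fabp4 (248.0 CPM in mutants and 304.3 CPM in WT on average), so it is no separate measure of brown fat. The other markers were not called, with Prdm16 at 0.05, Cidea at -0.16 and Dio2 at -0.27. Of the skeletal muscle markers, Myod1 had 0 counts in every library and Myog between 1 and 6. The other 6 summed to 1986 to 2195 CPM in mutants and 2349 to 2644 CPM in WT, and nearly all of this was Ckm, which the heart also expresses (2009 CPM in mutants and 2363 CPM in WT on average). Without Ckm the sums were 67.2 to 87.9 CPM in mutants and 94.4 to 104.3 CPM in WT. Ckm and Myh8 were called lower, the call of Myh8 being lost without any 1 of 6 libraries (adjusted p of at most 0.12). The other 4 were not called. Of these, Acta1 was at -0.37, without overlap between the genotypes. Myh3 was at -0.56, Tnnt3 at 0.04 and Mylpf at 0.34, and the genotypes overlapped for each.

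Complex V, ATP synthase, had a summed level of 12597 ± 434 CPM in mutants and 13541 ± 726 CPM in WT. Of its 17 members 4 were called lower (23.5%), and the median was -0.12. In the catalytic F1 part, Atp5a1 and Atp5b, its alpha and beta subunits, were the most abundant members per kilobase, with 959.7 and 939.3 CPM per kb in mutants and 1019 and 997.6 CPM per kb in WT. Atp5a1 overlapped between genotypes (-0.09 ± 0.04, adjusted p = 0.24). The small epsilon subunit Atp5e was called (180.5 ± 4.52 CPM in mutants and 200.4 ± 14.4 CPM in WT, -0.15 ± 0.05, adjusted p = 0.047).

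In the membrane part and the stalk that joins it to F1, Atp5l (-0.16 ± 0.05, adjusted p = 0.033), the g subunit known for its part in dimers of the enzyme, Atp5f1 (-0.15 ± 0.04, adjusted p = 0.040), the stalk's b subunit, and Atp5j2 (-0.14 ± 0.04, adjusted p = 0.043), the f subunit, were called. Atp5l had 200.8, 202.0, 200.8 and 187.4 CPM in mutants and 221.2, 242.5, 215.4 and 207.4 CPM in WT, without overlap. The 4 calls of complex V were lost without any 1 of 5 to 7 libraries, with adjusted p of at most 0.116.

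The proton-carrying c ring is built from 3 genes that encode the same mature protein. Atp5g1 had 481.0, 535.4, 548.6 and 504.5 CPM in mutants and 543.6, 657.5, 584.5 and 570.3 CPM in WT, and mutant replicate 3 lay above WT replicate 1 (-0.19 ± 0.06, adjusted p = 0.052). Atp5g3, the most abundant of the 3 per kilobase, averaged 968.2 ± 39.9 CPM in mutants and 1060 ± 79.0 CPM in WT, without overlap (-0.13 ± 0.05, adjusted p = 0.11). Atp5g2 averaged 148.8 ± 3.73 CPM in mutants and 154.4 ± 8.38 CPM in WT (-0.05 ± 0.04, adjusted p = 0.48). None of the 3 was called.

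Genes that build, feed or regulate the chain were described from lists, beside which 7.49% of all genes were called lower and 5.75% higher. Of 49 assembly factors tested, 2 were called lower and 1 higher, with a median of -0.06. Higd1a, which binds cytochrome c oxidase and responds to hypoxia, had 102.3, 96.9, 93.1 and 86.1 CPM in mutants and 116.6, 126.4, 118.9 and 116.2 CPM in WT (-0.34 ± 0.05, adjusted p = 0.00043), without overlap. Ndufaf1, a complex I assembly factor, was lower (-0.20 ± 0.06, adjusted p = 0.038, a call lost without any 1 of 6 libraries), and Tmem186, another one, was higher (0.24 ± 0.06, adjusted p = 0.010). Sco2 had at most 2 counts in a library and Pet117 had 0, so neither was tested.

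Of 8 electron carriers and subunits that the symbols miss, 2 were called lower, with a median of -0.12: Etfa, which passes electrons from fatty acid oxidation to ubiquinone (-0.15 ± 0.04, adjusted p = 0.041), and Usmg5, a small ATP synthase subunit (-0.13 ± 0.04, adjusted p = 0.042). Both calls were lost without any 1 of 6 or 7 libraries. Of 18 genes of the tricarboxylic acid cycle and pyruvate dehydrogenase, a list without the Sdh members, 9 were called lower and 0 higher, all 18 were negative and the median was -0.13. Pdhb, of pyruvate dehydrogenase (-0.25 ± 0.05, adjusted p = 0.0022), and Sucla2, of succinyl-CoA synthetase (-0.18 ± 0.04, adjusted p = 0.0098), remained called without any 1 library. Of 20 genes for carriers, import and the outer membrane, 4 were called lower and 0 higher, with a median of -0.08.

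Ckmt2, the mitochondrial creatine kinase of striated muscle, had 58.5, 67.0, 77.4 and 67.3 CPM in mutants and 119.5, 127.5, 126.5 and 124.3 CPM in WT (-0.88 ± 0.07, adjusted p = 2.85e-05), with a wide gap between the groups. Slc25a4, the heart ADP/ATP carrier that exports the ATP made by complex V, averaged 2174 ± 107 CPM in mutants and 2717 ± 177 CPM in WT (-0.32 ± 0.05, adjusted p = 0.00078).

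Of 24 regulators of mitochondrial genes, 6 were called lower and 3 higher, with a median of -0.02. Esrrb, an oestrogen-related receptor, had 12.3, 11.4, 13.9 and 10.2 CPM in mutants and 16.97, 19.3, 17.3 and 18.4 CPM in WT, without overlap (-0.59 ± 0.09, adjusted p = 0.00059). The more abundant receptors of this family were not called. Esrra averaged 143.2 CPM in mutants and 155.0 CPM in WT (-0.11 ± 0.05, adjusted p = 0.14), and Esrrg 50.1 and 48.8 CPM (0.04 ± 0.05, adjusted p = 0.72). Ppara, the receptor that drives fatty acid oxidation genes, had 28.9, 25.1, 23.3 and 24.5 CPM in mutants and 34.3, 31.9, 34.8 and 35.7 CPM in WT, without overlap (-0.42 ± 0.07, adjusted p = 0.00065). The higher ones included Gabpb2, a subunit of the factor GABP (0.21 ± 0.04, adjusted p = 0.0031), and Nrip1, a corepressor of metabolic genes (0.21 ± 0.06, adjusted p = 0.043, a call lost without any 1 of 6 libraries).

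The mitochondrially encoded subunits of the same complexes were called in both directions, but the lower calls were all of genes at low levels. Of 13, 3 were called lower and 3 higher, the median was 0.09, and their summed level overlapped, at 46905 to 48667 CPM in mutants and 44345 to 49549 CPM in WT. The lower ones included mt-Nd4l (-0.70 ± 0.09, adjusted p = 0.00016) and mt-Nd3 (-0.66 ± 0.12, adjusted p = 0.011), both of complex I. The higher ones included mt-Cytb of complex III (0.22 ± 0.05, adjusted p = 0.0073) and mt-Nd5 of complex I (0.18 ± 0.04, adjusted p = 0.0075). The levels of the 13 genes were very unequal. On average mt-Co1 had 19470 CPM in mutants and 20753 CPM in WT, whereas mt-Nd4l had 7.34 CPM in mutants and 11.96 CPM in WT, and mt-Co2, mt-Co3, mt-Atp6 and mt-Atp8 lay below 10 CPM in both. The summed level therefore rests on a few genes, and the values of these 5 low genes are uncertain. They include mt-Nd4l and mt-Co3, which were both called lower. The other lower call, mt-Nd3 (52.4 CPM in mutants and 82.9 CPM in WT), lies between mt-Co3 and mt-Nd4l on the mitochondrial genome and is uncertain too. The higher calls were of abundant genes, mt-Cytb, mt-Nd5 and mt-Nd4 (2641 CPM in mutants and 2241 CPM in WT).

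Some reads of the members could be shared with other genes. Near-identical transcripts, at least 95% alike over at least 50% of the coding sequence, were found for 20 members, and of the called ones for Atp5f1, Uqcr11 and Atp5l. Summed over its copies, their counts were at most 1.83% of those of the member, for Atp5l with 8 copies, and the copy of Ndufb3 had no count in the files. Exons of 25 members overlap another gene. Of the called ones these were Cox5a, Uqcrc2, Atp5f1, Atp5l, Cox6a2 (by 70 bases, with Itgad) and Ndufa4l2 (by 30 bases, with Shmt2). The sources used here do not give the strand setting, so such reads cannot be told apart. Higd1a, Tmem186, Usmg5, Gabpb2 and Ckmt2 also share exon bases with a gene on the opposite strand. Among the 57 members without such an overlap, 14 were called lower and the median was -0.12. Between isoform partners, the coding sequences of Cox6a2 and Cox6a1 matched at 80% over 95 bases, and no such match was found for the Cox7a, Cox8 and Cox4i pairs.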

How the data were processed

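RNA sequencing libraries of 8 whole hearts were compared, 4 CHD4 M195I/M195I and 4 WT, at E18.5. The submitters' processing notes name Trimmomatic 0.36 for trimming, STAR 2.5.2b for alignment, GRCm38 (mm10) as the genome, and featureCounts of Subread 1.5.2 for counting. The authors deposited raw counts per gene, in a file for each library and again in a joint table with the same values. The sources used here give neither the strand setting nor the annotation release. Symbols and exons came from GENCODE M21, and 91.44% of the genes had the same position there. Per the file headers, each column name begins with the word male.

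Genes were kept by filterByExpr (minimum count 10) and scaled by TMM, with factors of 1.01 to 1.03 in mutants and 0.963 to 0.993 in WT. The genotypes were compared over all 16372 genes with edgeR 4.0.16 in R 4.3.3 (robust quasi-likelihood fit, no covariate, biological coefficient of variation 0.0908), with calls at an adjusted p (Benjamini-Hochberg) under 0.05. Isoform ratios used counts plus 0.5 per gene, divided by exon length, with a two-sided exact permutation test over 70 assignments of the libraries. Exon length counts every annotated base of a gene, so long rare variants lower a level per kilobase. Between replicates, chi-square divided by its degrees of freedom was 2.87 to 9.18, so no library was a repeat of another.

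The members and lists were chosen with earlier results of these data known, and the pericyte list and the split by airway transcripts were added after these values were seen. Named genes were the isoform pairs, every called member, the members with the largest and smallest change and the highest level in each complex, and up to 2 called genes per list and direction. Others, such as Sdha, Ndufb2, Esrra, Esrrg and the tissue markers, were named after their values were seen. The values of 1 member are not reported here, although it is in all counts and sums. Promoter windows came from RefSeq (GRCm38.p6). The alternatives were DESeq2 1.42.0, RLE factors, library totals, no filter, an adjusted p under 0.1, a replicate block, each library left out, Ndufa4 and Ndufa4l2 counted in complex I, and the airway split.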

Additional observations from a re-analysis of the deposited data

Results flagged for a closer look

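A library was marked where its gap to the nearest of the other 3 of its genotype was unusually large for the range of the 4. Of 118 groups of 4 libraries examined, 18 were marked. Chance marks about 1 in 20 for a single group. The groups here share the same 8 libraries, so the 18 marks cannot be set against that rate. In 15 of the 18 marked groups the library was WT replicate 2.

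Among the members, WT replicate 2 stood above the other WT libraries for Cox7a1 (126 CPM, against 110.4 to 112.6 CPM), Cox7a2 (286.1, against 249 to 254.3 CPM), Cox7b (425.2, against 362.8 to 367 CPM) and Cox8a (344.1, against 307 to 313 CPM). It also stood above them for Uqcrc2 (623 CPM), Uqcr11 (241.9 CPM), Uqcr10 (222.3 CPM) and Ndufa1 (95.05 CPM). In complex V the same library was marked for Atp5a1 (3412 CPM), Atp5g3 (1178 CPM) and Atp5f1 (717.1 CPM). The summed level of all members in this library was 33530 CPM, against 29890 to 30240 CPM in the other WT libraries. Outside the members it was high for Etfa (369.1 CPM) and Slc25a4 (2981 CPM) and low for Nrip1 (21.28 CPM).

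Mutant replicate 4 was low for Atp5l (187.4 CPM, against 200.8 to 202 CPM in the other mutant libraries). Mutant replicate 2 was high for Tmem186 (30.84 CPM) and mutant replicate 3 was low for Nrip1 (25.48 CPM, against 27.96 to 28.35 CPM). WT replicate 2 also had the highest summed cardiomyocyte markers of all 8 libraries (47512 CPM) and lacked airway transcripts, as did mutant replicates 1 and 2, whose member sums were 27574 and 29388 CPM. What set this library apart was not tested.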

How the results depend on the processing

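The count of members called lower, 20 in the reported test, was 31 with DESeq2, 39 with the replicate block, 36 at an adjusted p under 0.1, 6 with library totals and 5 in the libraries with airway transcripts, and 54 in the 3 without them. It was 16 with RLE factors and 29 without the filter. With DESeq2 37.8% of members were called lower, against 9.11% of all genes tested, and with the block 47.6% against 8.75%. The shares were 19.5% against 7.19% with RLE factors and 35.4% against 4.45% of 30718 genes without the filter. At an adjusted p under 0.1 the share of all genes was not counted. With 1 library left out the count of members called lower lay between 6 and 17, and the median log2 fold change between -0.08 and -0.14. In the 3 libraries without airway transcripts, where the lone WT library is assumed to vary like the mutants, the median was -0.26. No member was called higher in any of these fits. The labels do not say whether the replicate numbers pair the hearts. Over genes, same-numbered libraries correlated at -0.516, 0.774, 0.562 and 0.102. Some differently numbered ones correlated at similar values, such as mutant replicate 1 with WT replicate 2 (0.662) and mutant replicate 4 with WT replicate 3 (0.625). These values therefore cannot settle whether the hearts were paired. The block raised the count of lower calls among all genes from 1226 to 1432.

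Some small differences changed sign. With library totals Cox6a1 (0.0087), Ndufa1 (0.0099), Sdhc (0.015), Sdhd (0.0029) and Uqcr10 (0.0082) were above 0. In the 5 libraries with airway transcripts Ndufa1 was 0.018 and Uqcr10 was 0.00067, and in the other 3 Cox6b2 was -0.0072 and Cox8a was -0.13. With 1 library left out, Cox6b2 lay between -0.054 and 0.13, Cox8a between -0.024 and 0.041, Ndufa1 between -0.077 and 0.0076, Sdhc between -0.074 and 0.0058 and Uqcr10 between -0.069 and 0.012. The cause was not tested.

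With 1 library left out, the difference in log2 ratio lay between -0.31 and -0.22 for Cox6a2/Cox6a1, -0.35 and -0.30 for Cox8b/Cox8a, -0.45 and -0.34 for Cox4i2/Cox4i1 and -0.016 and 0.028 for Cox7a1/Cox7a2. It fell below 0 for the last pair without mutant replicate 2 (-0.016) and without mutant replicate 4 (-0.0071). With 4 libraries per genotype, differences of the size of most members, near a log2 fold change of -0.12 with a standard error near 0.05, sat at the limit of what the test calls, and 14 of the 20 calls were lost without at least 1 library. Counting error is largest for Cox4i2 and Cox6b2, at 104 to 163 counts per library.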
